A study of Mus musculus with 78 samples.

Results

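Mouse CD8+ T cells that spent 3 h without methionine were compared directly with cells that spent 3 h without the branched-chain amino acids (BCAA), in total RNA, over all genes of the deposited count table. The comparison used 6 of the 78 samples of the series, chosen by their labels: 3 total RNA libraries without methionine and 3 without BCAA. The cells were primary CD8+ T cells that had been isolated from C57BL/6J mice (lymph node and spleen) and were on day 3 of activation. Total RNA is the input aliquot taken from each lysate before polysomes were separated on a gradient. The other nutrient groups (complete medium, called Control, and medium without arginine, glucose or glutamine, 3 total RNA libraries each) entered the same fit, which therefore covered 18 libraries. The labels name no genetic change in any group, and by the labels both groups differed from Control in what was left out of the medium for 3 h. The labels do not say whether the 3 numbered libraries of a group came from separate cultures or animals, so the p-values measure the spread between these libraries, which may be technical.

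Methionine is both a building block of protein and the source of S-adenosylmethionine (SAM), the methyl donor of the cell, which MAT2A makes from methionine and ATP. The BCAA, leucine, isoleucine and valine, are building blocks of protein too, and leucine and SAM each have sensor proteins upstream of the kinase mTORC1. A missing amino acid leaves tRNAs uncharged and activates the kinase GCN2, which phosphorylates eIF2 alpha and raises the transcription factor ATF4. This integrated stress response (ISR) is known to turn on genes for amino acid transport, amino acid synthesis and tRNA charging. Setting one deprivation against the other shows which mRNAs differ between them when both lack an essential amino acid.

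Levels are given as counts per 1000000 counts of the library (CPM), scaled by TMM factors except for the markers. The 6 libraries held between 18670605 and 25701946 counted reads. Libraries of a group differed by more than sampling noise, and the library without methionine numbered 1 stood farthest from its group. Its Pearson correlations of log CPM with the other 2, across genes, were 0.988 and 0.990, and the other pairs within the 2 groups reached 0.994. All 8 CD8 T cell markers were in the table, with summed levels of 1910.2 to 2177.4 CPM without methionine and 1911.5 to 1978.6 CPM without BCAA, and none was called between the groups. Of 6 B cell markers, 2 were found in the table by symbol (Cd79a and Cd79b), with sums of 1.66 to 2.10 CPM and 1.93 to 2.71 CPM, and Foxp3 was at 0 to 0.107 CPM. None of the natural killer, myeloid and erythroid markers looked up was found in the table, so their levels are not known here. Pecam1, the 1 of 4 stromal and endothelial markers found, was at 12.5 to 13.0 CPM without methionine and 8.94 to 9.38 CPM without BCAA, and was called higher. The part of such cells in the results was not tested.

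Of 12642 genes tested, 845 were higher and 845 were lower without methionine than without BCAA at an adjusted p below 0.05 (edgeR quasi-likelihood F test, Benjamini-Hochberg). That is 13.4% of the genes tested, with 6.68% in each direction, and 3341 genes had an unadjusted p below 0.05. The median absolute log2 difference of the called genes was 0.392, and 336 of the higher and 204 of the lower genes differed by at least 0.5. In 1624 of the 1690 called genes all 3 libraries of one group lay beyond all 3 of the other. Fitted on the 6 libraries alone, the test called 705 genes (395 higher, 310 lower). With library totals in place of TMM factors it called 1195 higher and 548 lower genes, so 68.6% of the calls were higher, against 50% with TMM. Without the first library lacking methionine 1271 genes were lower, and without the first library lacking BCAA 531 were higher.

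**Figure D1:**
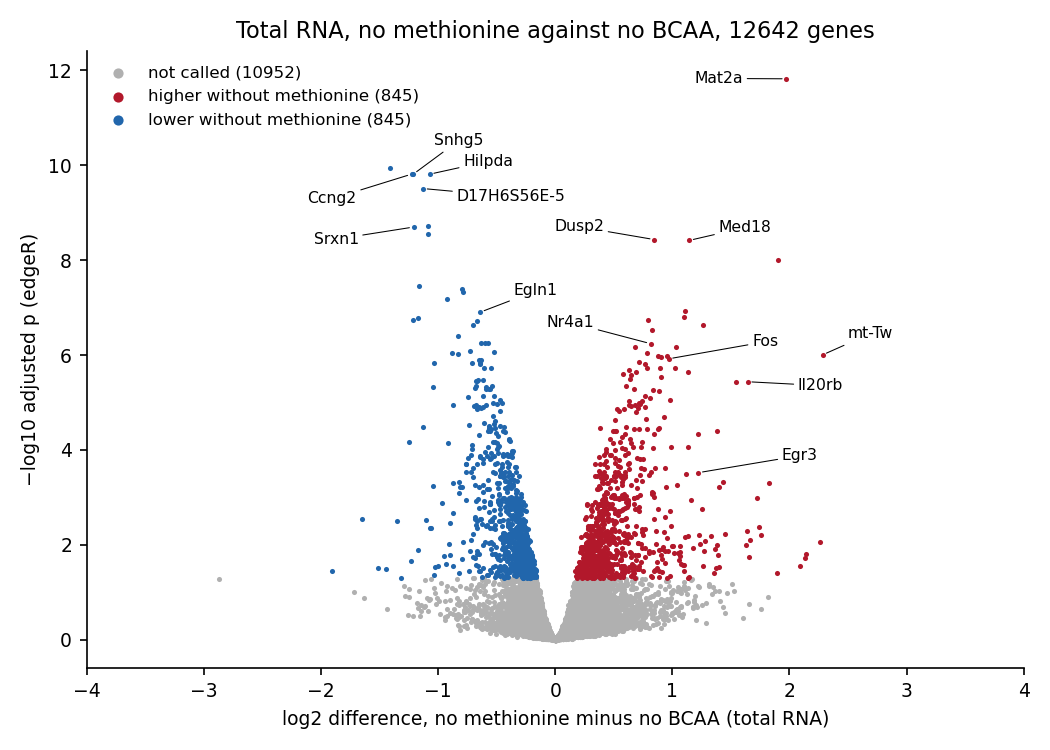
Each point is 1 of 12642 genes, with the log2 difference of total RNA (no methionine minus no BCAA) on the x axis and −log10 of the edgeR adjusted p on the y axis; red and blue points are the 845 genes called higher and the 845 called lower without methionine. Mat2a stands at the top right and Ccng2, Snhg5, Hilpda and Srxn1 at the top left.

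The gene with the smallest adjusted p was Mat2a, which encodes the catalytic subunit of the enzyme that makes SAM from methionine. Its level was 681, 655 and 631 CPM in the 3 libraries without methionine and 169, 152 and 180.4 CPM in those without BCAA. The groups did not come near each other, and the difference was 1.97 ± 0.08 on the log2 scale (± standard error of the fit, n = 3 and 3, edgeR adjusted p = 1.51e-12). Control libraries held 359, 298 and 319 CPM, between the 2 groups. Against Control, Mat2a was 1.01 without methionine and -0.96 without BCAA, both called. Over the 6 nutrient groups the mean was 656 ± 25.0 CPM (SD, n = 3) without methionine, 325 ± 31.1 in Control, 197 ± 18.1 without arginine, 167 ± 14.6 without BCAA, 156 ± 6.90 without glutamine and 95.6 ± 2.65 without glucose. The means without BCAA and without glutamine differed by less than the SD of the group without BCAA. As in any bulk sample, a change in the share of cells that express a gene and a change in RNA per cell cannot be told apart.

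Among the genes of the methionine and SAM cycle, 4 were higher and 2 lower of 11 tested (6.68% of all genes in each direction), with a median log2 difference of 0.003 beside 0.014 over all genes. Of the 11, 2 were higher without the first library lacking methionine or the second lacking BCAA, and also in the fit on 6 libraries, and 1 was lower without the third library of either group. DESeq2 called 4 lower. Mmachc, a vitamin B12 processing protein, was 0.48 higher on the log2 scale and Mtrr, which reactivates methionine synthase, 0.26. Mettl16, the RNA methyltransferase known to control Mat2a mRNA splicing, was -0.27. The call of Mettl16 was lost under 4 of the 15 alternatives, that of Mtrr without the first library lacking methionine and without the second lacking BCAA. Ahcy, which clears the product of SAM-dependent methylation, was not called (-0.14, edgeR adjusted p = 0.0964). Of 41 methyltransferases that use SAM, 1 was higher and 2 lower, shares at or under 6.68%. Without the first library lacking methionine 5 were lower, and with library totals 3 were higher and none lower. The higher one was Cmtr2, a methyltransferase of the mRNA cap, with 39.4, 43.1 and 40.3 CPM without methionine and 25.9, 25.5 and 27.1 CPM without BCAA (0.64 ± 0.07, edgeR adjusted p = 2.64e-06).

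Among the genes of BCAA catabolism 2 were higher and 3 lower of 25 (6.68% of all genes in each direction), with a median of -0.05. In the fit on 6 libraries none was higher and 1 lower, and without the third library lacking BCAA 1 was lower. Bcat1, the cytosolic transaminase of the first step, held 209, 201 and 208 CPM without methionine and 243, 234 and 235 CPM without BCAA. That difference of -0.20 ± 0.06 (edgeR adjusted p = 0.0319) was called only narrowly and lost its call under 7 of the 15 alternatives. Dbt and Dld, subunits of the branched-chain ketoacid dehydrogenase, were 0.30 and 0.30, and Hibadh, an enzyme of valine breakdown, was -0.40. Bcat2 and Bckdk, the mitochondrial transaminase and the kinase that inhibits the dehydrogenase, were not called (0.05 and 0.03). Of 21 amino acid transporters 1 was higher and 2 lower. Slc7a5, the light subunit of the leucine and methionine transporter, was at 1004, 897 and 989.8 CPM and 1002, 1058 and 903 CPM with overlapping libraries (-0.04, edgeR adjusted p = 0.839). Slc6a9, a glycine transporter, was -0.40, a call lost without the second library of either group. Among 43 nutrient-sensing regulators of mTORC1, 1 was higher (Wdr24, 0.31) and 1 lower (Wdr59, -0.29), both subunits of the GATOR2 complex, with 6.68% of all genes called in each direction. These counts moved with single libraries: 2 were higher and 6 lower without the first library lacking methionine, 3 and 0 without the second, 0 and 1 without the third, and 0 and 0, 0 and 4, and 1 and 0 without the first, the second and the third library lacking BCAA. DESeq2 called 2 higher and 4 lower. Neither call, nor those of Dbt and Dld, held in the fit on 6 libraries.

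Immediate early genes, transcription factors and regulators that rise within minutes of receptor signalling, were mostly higher without methionine. Of 25 tested, 14 were higher and 1 was lower, where 6.68% of all genes were called in each direction, and their median log2 difference was 0.42. Fos, an AP-1 subunit, held 25.8, 23.5 and 31.6 CPM without methionine and 13.8, 12.6 and 14.9 CPM without BCAA. The 2 groups did not overlap and differed by 0.97 ± 0.10 (edgeR adjusted p = 1.20e-06), and Control libraries lay far lower at 3.43, 3.62 and 3.60 CPM. Egr2, a zinc finger factor induced through the T cell receptor, was at 103, 91.8 and 104 CPM against 60.9, 62.6 and 58.7 CPM, with 14.6, 13.1 and 13.1 CPM in Control. That is a difference of 0.71 ± 0.07 (edgeR adjusted p = 1.43e-06) on top of a level above Control in both groups (2.87 and 2.16). Nr4a1, an orphan nuclear receptor often read as a mark of antigen receptor signalling, was at 286, 276 and 309 CPM and 165, 176 and 154 CPM (0.81 ± 0.08, edgeR adjusted p = 5.76e-07). Fos, Egr2, Egr3 and Nr4a1 each had their highest mean of the 6 nutrient groups without methionine.

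The other large differences in that list were Egr3 (1.22 ± 0.20), Ier5l (1.07 ± 0.28, at 2.33, 2.68 and 2.02 CPM without methionine) and Zfp36 (0.88 ± 0.12). Zfp36 encodes a protein that speeds the decay of cytokine mRNAs, and its libraries stood at 33.6, 28.9 and 36.5 CPM without methionine and 18.4, 19.9 and 15.4 CPM without BCAA. Maff, a small MAF protein, was the 1 gene lower (-0.49 ± 0.07, edgeR adjusted p = 0.000116). Myc was not called (371, 299 and 356 CPM against 289, 304 and 266 CPM, 0.26, edgeR adjusted p = 0.078), nor were Klf6 (-0.09), Ier3 (-0.17) and Dusp1 (0.01). In the fit on 6 libraries 9 of the 25 genes were higher, and with 1 library left out 11 to 14 were. Ier5l lost its call without the second library lacking methionine or the third lacking BCAA. The promoters of Egr2 and Zfp36 are shown because, of the 11 higher genes with a promoter window in RefSeq (GRCm38.p6), these 2 held a CArG box, the site bound by serum response factor, in capitals. Each run covers the 100 bases before a transcription start, 5′ to 3′ on the gene's strand, at chr10:67537466-67537565 (plus strand, 1 of 5 Egr2 windows) and chr7:28379229-28379328 (minus strand).
Egr2: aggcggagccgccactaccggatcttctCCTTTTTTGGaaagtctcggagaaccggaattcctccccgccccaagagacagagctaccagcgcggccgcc
Zfp36: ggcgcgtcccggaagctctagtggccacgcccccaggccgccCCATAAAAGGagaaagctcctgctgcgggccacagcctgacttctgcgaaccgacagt
Over windows of 250 bases before to 50 after the start, searched on both strands, the CArG box was found in 1.63% of all 32851 windows and in 1.5% of the 8843 tested genes with a window. It was in 1 of the 9 members with a window that were not called higher. A match of letters is a description and not evidence of binding.

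Genes that MAP kinase signalling turns on as its own brakes were higher in part. Of 17 tested, 6 were higher and none was lower (6.68% of all genes were called in each direction), with a median of 0.12. None was lower at an unadjusted edgeR p below 0.05, by DESeq2 or by limma-voom either, but 1 was without the first library lacking methionine. Dusp2, a nuclear phosphatase of ERK and p38, was at 288, 284 and 297 CPM without methionine and 157, 169 and 158 CPM without BCAA. Its libraries were tightly grouped and the difference was 0.84 ± 0.06 (edgeR adjusted p = 3.68e-09). Dusp7, another ERK phosphatase, was 0.90 ± 0.10 (edgeR adjusted p = 1.85e-06), although both groups were below Control, at -0.57 and -1.47 on the log2 scale against it. Phlda1, Spry4, Dusp5 and Dusp4 were 0.98, 0.47, 0.44 and 0.27. The count was 4 in the fit on 6 libraries and in 5 of the 6 fits that left a library out, and Dusp4 and Spry4 were among those lost. Klf10, a zinc finger factor listed here with MondoA targets, was higher too (21.9, 18.9 and 21.9 CPM against 9.94, 12.2 and 11.3 CPM, 0.91 ± 0.09, edgeR adjusted p = 1.11e-06).

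Some T cell genes differed too. Among 13 effector cytokines, Osm (oncostatin M) was at 109.8, 124 and 128 CPM without methionine and 72.9, 79.5 and 72.1 CPM without BCAA (0.69 ± 0.08, edgeR adjusted p = 2.26e-06), and Lif was 0.40. None of the 13 was lower, also at an unadjusted edgeR p below 0.05, by DESeq2 and by limma-voom, but 1 was without the second library lacking methionine. Of all genes, 6.68% were called in each direction. The 2 higher cytokines became 5 without the first library lacking methionine, 3 without the second, and 4 with DESeq2 or library totals. The chemokine Ccl4 was at 548, 699 and 662 CPM against 475, 492 and 463 CPM (0.42 ± 0.08, edgeR adjusted p = 0.00134). Ifng held 1471, 1836 and 1792 CPM and 1474, 1524 and 1537 CPM, with overlapping libraries (0.17, edgeR adjusted p = 0.205), and the granule protease Gzmb was -0.04 (edgeR adjusted p = 0.824). Of 14 cytotoxic granule genes 3 were lower and 0 higher (6.68% of all genes in each direction), with a median of -0.008. DESeq2 and limma-voom called 3 lower and 0 higher, and at an unadjusted edgeR p below 0.05 1 was higher. In the fit on 6 libraries 2 were lower, and without the first library lacking methionine 1 was higher. The effector transcription factors Nfatc1, Nfil3 and Tbx21 were 0.44, 0.34 and 0.27, and Id2 was -0.31. Those calls were lost under 2 to 5 alternatives each, except that of Nfil3. Il7r, the interleukin 7 receptor of resting and memory T cells, was lower without methionine at 120.1, 115 and 106 CPM than without BCAA at 176, 169 and 184 CPM (-0.63 ± 0.07, edgeR adjusted p = 1.27e-06). Bcl2, the survival factor that interleukin 7 is known to sustain, was -0.57 ± 0.08 (edgeR adjusted p = 3.53e-05). The Control mean lay between the 2 groups for both: against Control, Il7r was -0.20 without methionine and 0.43 without BCAA, and Bcl2 was -0.23 and 0.34. The lists of such genes went both ways. Of 19 naive and memory genes 3 were higher and 2 lower, with a median of 0.03. In the fit on 6 libraries 1 was higher and 2 lower, and without the first library lacking methionine 2 and 5. Of 13 genes of the BCL-2 family 2 were higher and 1 lower, with a median of 0.05.

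**Figure D2:**
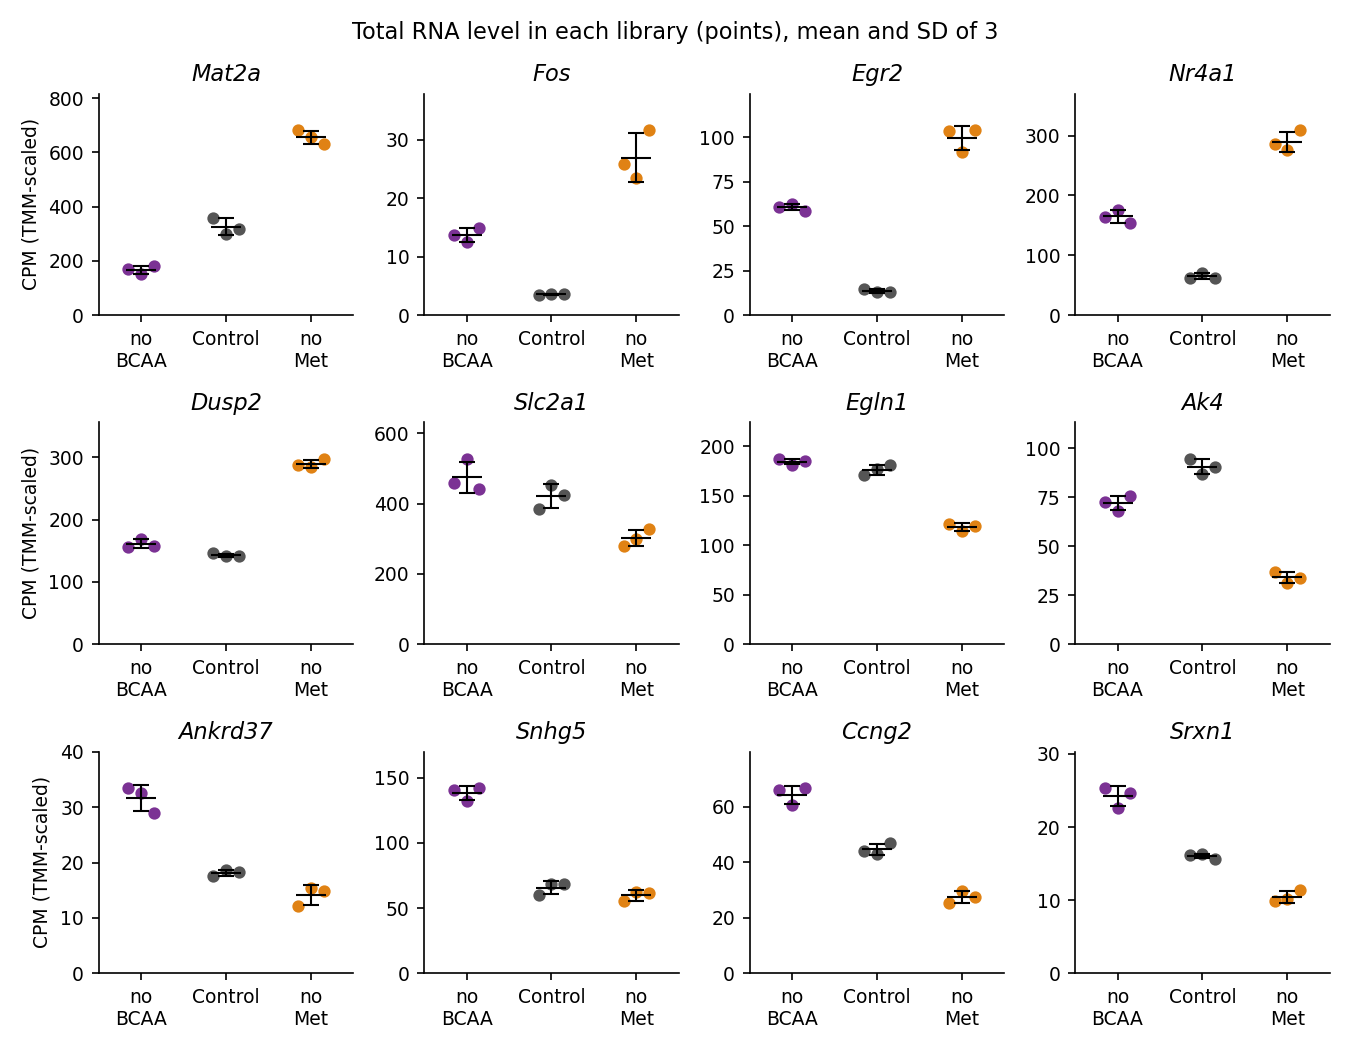
Each panel shows 1 gene, with total RNA level in TMM-scaled CPM on the y axis from 0, and the 3 libraries without BCAA, in Control medium and without methionine as points; bars are mean and SD of 3. Mat2a, Ankrd37, Ccng2 and Srxn1 have Control between the 2 deprivations, while Fos, Egr2 and Nr4a1 are above Control in both.

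Part of the genes of glycolysis and of the response to the hypoxia-inducible factor HIF was lower without methionine. Of 34 tested, 20 were lower, none was higher and 14 were not called (6.68% of all genes were called in each direction), with a median log2 difference of -0.24. At an unadjusted edgeR p below 0.05, 24 were lower and none higher, and DESeq2 and limma-voom called 22 and 21 lower and none higher. Slc2a1, the main glucose transporter of activated T cells, was at 281, 299 and 327 CPM without methionine and 457, 526 and 441 CPM without BCAA, with 385, 454 and 423 CPM in Control. The groups did not overlap and differed by -0.65 ± 0.09 (edgeR adjusted p = 4.94e-05). Slc16a3, which exports lactate, was at 232, 296 and 319.6 CPM against 435, 495 and 412 CPM (-0.66 ± 0.11, edgeR adjusted p = 0.000193). Egln1, an oxygen-dependent prolyl hydroxylase that marks HIF for decay and is itself a HIF target, was at 122, 114 and 119 CPM against 187, 182 and 186 CPM. It differed by -0.64 ± 0.06 (edgeR adjusted p = 1.25e-07), with libraries of each group close together. Ak4, a mitochondrial adenylate kinase, and Ankrd37 had the widest gaps of the list, at -1.08 ± 0.07 and -1.16 ± 0.09. Ankrd37 stood at 12.1, 15.5 and 14.8 CPM, 33.4, 32.6 and 28.9 CPM and, in Control, 17.5, 18.6 and 18.3 CPM, so that it was -0.36 without methionine and 0.80 without BCAA against Control. Hilpda, a lipid droplet protein induced by HIF, was at 55.6, 60.2 and 62.4 CPM against 123, 128 and 124 CPM (-1.07 ± 0.06, edgeR adjusted p = 1.54e-10).

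Slc2a3, a further glucose transporter, was -0.59. Gapdh (-0.06, edgeR adjusted p = 0.646) and Pkm (-0.17, edgeR adjusted p = 0.108), enzymes of the later steps of glycolysis, were not called. Against Control the list's median was -0.37 without methionine and -0.03 without BCAA. In the fit on 6 libraries 12 of the 34 were lower, and with 1 library left out 16 to 19 were. The mean of Slc2a1, Ak4, Ankrd37 and Hilpda without methionine was the second lowest of the 6 nutrient groups in each case, above that without glutamine, and for Slc2a1, Ankrd37 and Hilpda the mean without BCAA was the highest.
The runs below show the letters ACGTG, the core of the site bound by HIF, in capitals in the 100 bases before the start of 5 of these genes (RefSeq, GRCm38.p6, 5′ to 3′ on the gene's strand). They lie at chr8:45999851-45999950 (minus strand), chr11:120948967-120949066 (plus), chr4:119108645-119108744 (plus), chr8:124949255-124949354 (minus) and chr6:29272526-29272625 (plus, 1 of 2 windows).
Ankrd37: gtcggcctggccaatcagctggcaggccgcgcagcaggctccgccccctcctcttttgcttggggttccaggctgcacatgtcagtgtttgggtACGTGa
Slc16a3: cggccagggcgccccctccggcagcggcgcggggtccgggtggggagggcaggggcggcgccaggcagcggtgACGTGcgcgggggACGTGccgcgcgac
Slc2a1: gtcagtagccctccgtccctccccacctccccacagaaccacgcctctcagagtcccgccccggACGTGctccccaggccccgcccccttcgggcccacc
Egln1: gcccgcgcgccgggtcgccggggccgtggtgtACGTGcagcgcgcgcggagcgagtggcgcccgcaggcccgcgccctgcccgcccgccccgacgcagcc
Hilpda: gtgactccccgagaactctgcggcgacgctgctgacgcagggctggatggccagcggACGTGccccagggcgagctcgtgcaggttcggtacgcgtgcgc
In windows of 250 bases before to 50 after the start, on both strands, ACGTG was found in 15 of the 18 lower members of the list that had a window and in 10 of the 14 that were not called lower. It was found in 30.3% of the 8843 tested genes with a window and in 19.6% of all 32851 windows. The letters also form part of the E-box CACGTG, which other factors bind, and so do not single out HIF.

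Most targets of ATF4 and of the ISR were above Control in both groups, and 14 of 35 were lower without methionine than without BCAA. Of 35 tested, 33 were called above Control without methionine and 33 without BCAA, comparisons that share the Control libraries, with medians of 0.83 and 1.01. The share of all genes called above Control is not given here. Directly compared, those 14 were lower, 1 was higher and 20 were not called (6.68% of all genes in each direction), with a median of -0.16. Atf3, a stress-induced repressor, stood at 419, 452 and 456 CPM without methionine, 567, 570.2 and 564 CPM without BCAA and 131, 129.9 and 134 CPM in Control. All its libraries without methionine were below all those without BCAA and far above Control, and the direct difference was -0.36 ± 0.05 (edgeR adjusted p = 0.000103). Cebpg, a dimer partner of ATF4, was at 134, 128 and 128 CPM and 189, 184 and 187 CPM (-0.52 ± 0.05, edgeR adjusted p = 8.59e-07). Vldlr, a lipoprotein receptor, and Stc2, a secreted stanniocalcin, had the widest gaps at -0.68 ± 0.08 and -0.68 ± 0.08, and Sqstm1, the autophagy receptor p62, was -0.47 ± 0.06.

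For Ddit3 and Trib3 the difference was small beside the rise that both groups shared, and for Asns and Mthfd2 it was less so. Ddit3, which encodes CHOP, was 3.02 above Control without methionine and 3.27 without BCAA, and -0.24 ± 0.07 between them (edgeR adjusted p = 0.0147). That call was lost in the fit on 6 libraries, with library totals, and without the second library of either group. Trib3, a pseudokinase that inhibits AKT, was -0.31 ± 0.07, Asns (asparagine synthetase) -0.26 ± 0.06 and Mthfd2 (mitochondrial folate metabolism) -0.25 ± 0.05. All 3 lost their call only in the fit on 6 libraries. Against Control, Trib3 was 2.55 without methionine and 2.86 without BCAA, Asns 0.62 and 0.88, and Mthfd2 0.44 and 0.69. Atf4 itself was at 1011, 1171 and 1119 CPM and 992, 999.8 and 959.9 CPM, not called (0.16, edgeR adjusted p = 0.0685). Chac1, which degrades glutathione, and Sesn2, an inhibitor of mTORC1, were not called either (0.07 and -0.10). Pycr1, of proline synthesis, was the 1 member higher (0.33, edgeR adjusted p = 0.0172), a call lost under 4 alternatives. In the fit on 6 libraries 5 of the 35 genes were lower, and with 1 library left out 10 to 15 were.

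**Figure D3:**
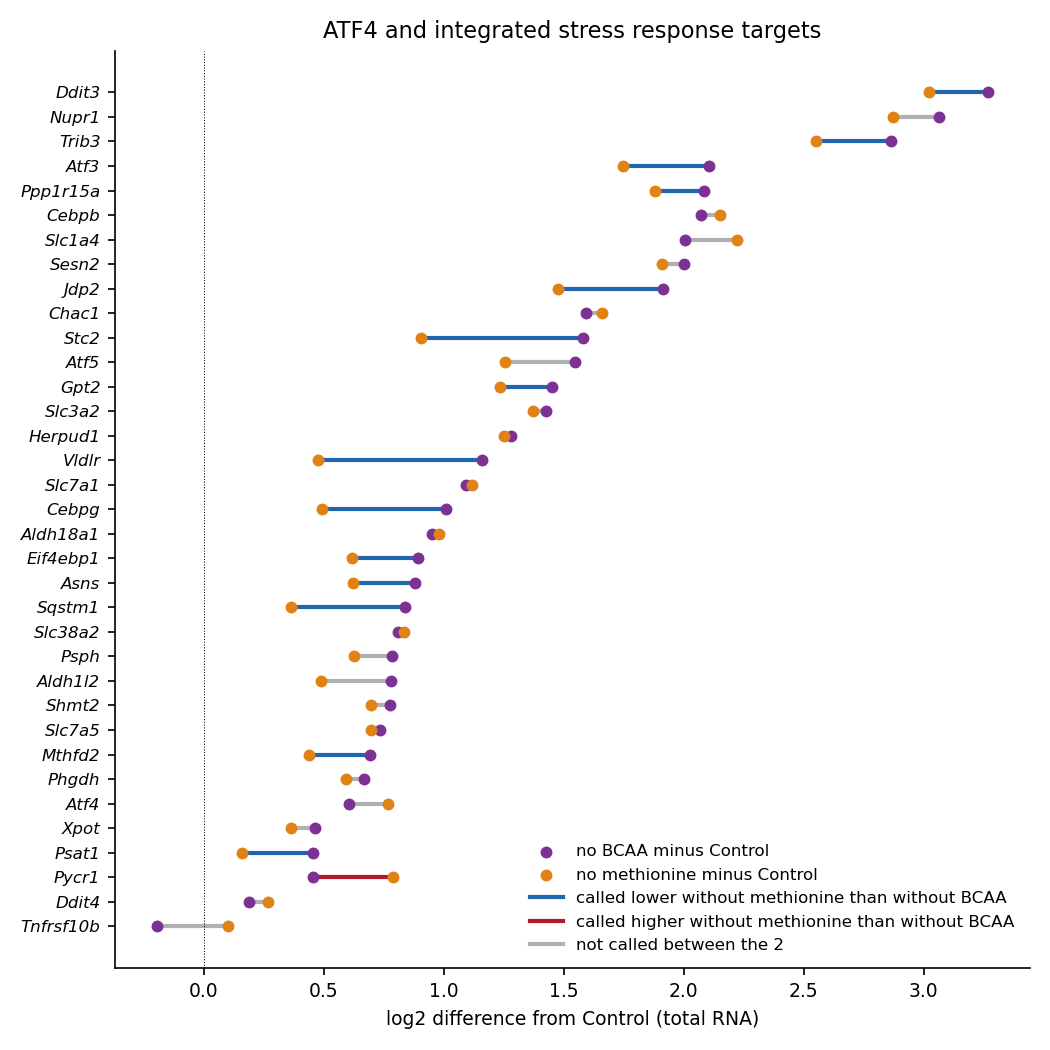
For the 35 tested ATF4 and ISR targets, points give the log2 difference of total RNA from Control without BCAA (purple) and without methionine (orange), on the x axis, 1 gene per line; the joining line is blue or red where the direct comparison called the gene lower or higher without methionine. The same 33 genes are called above Control in each deprivation, in comparisons that share the Control libraries, and 14 joining lines are blue.

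The cytosolic aminoacyl-tRNA synthetases, which load tRNAs and are known ATF4 targets in large part, had 6 of 22 lower and none higher (6.68% of all genes in each direction), with a median of -0.11. At an unadjusted edgeR p below 0.05, 9 were lower and none higher, and DESeq2 and limma-voom called 8 and 6 lower and none higher. Nars1, for asparagine, was at 559, 506 and 525 CPM without methionine and 693, 640.0 and 695 CPM without BCAA (-0.35 ± 0.08, edgeR adjusted p = 0.00477). Farsb, Cars1, Gars1, Yars1 and Sars1 were between -0.28 and -0.21. Of the enzymes for the removed amino acids, those with a value were not called: Mars1 (methionine) was 0.10, Lars1 (leucine) -0.10 and Vars1 (valine) 0.11. No tested gene had the symbol Iars1 (isoleucine). The count fell to 1 in the fit on 6 libraries, to 3 with library totals and to 3 without the first library lacking BCAA, and 1 synthetase was higher without the first library lacking methionine.

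Host transcripts of small nucleolar RNAs (snoRNAs), which are known to be degraded by nonsense-mediated decay when ribosomes translate them, were lower without methionine in 9 of 15 tested and higher in 1 (6.68% of all genes in each direction), with a median of -0.33. Snhg5 was at 55.2, 62.3 and 61.7 CPM without methionine, 141, 132 and 142 CPM without BCAA and 60.3, 68.3 and 68.6 CPM in Control. Its level without methionine overlapped Control, and the difference between the deprivations was -1.21 ± 0.07 (edgeR adjusted p = 1.54e-10). Snhg12 was at 74.0, 90.7 and 80.2 CPM against 175, 180.4 and 166 CPM (-1.09 ± 0.07, edgeR adjusted p = 2.79e-09), with 54.1, 57.5 and 61.4 CPM in Control. Snhg7, Zfas1 and Snhg3 were -0.57, -0.56 and -0.55, and Snhg17 was the 1 host higher (0.24), a call lost under 4 alternatives. In the fit on 6 libraries 4 were lower.

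Beyond the genes described so far, several single genes had large gaps. Ccng2, an atypical cyclin of growth arrest that FOXO factors turn on, was at 25.4, 29.6 and 27.4 CPM without methionine, 65.9, 60.6 and 66.6 CPM without BCAA and 44.0, 43.0 and 46.8 CPM in Control. The 3 groups did not overlap, and the deprivations differed by -1.23 ± 0.07 (edgeR adjusted p = 1.54e-10). Srxn1, which repairs oxidised peroxiredoxins and is a target of NRF2, was at 9.84, 10.2 and 11.4 CPM against 25.3, 22.6 and 24.7 CPM (-1.21 ± 0.08, edgeR adjusted p = 2.01e-09). Nfe2l2, which encodes NRF2, went the other way (97.6, 100.1 and 99.1 CPM against 77.3, 71.5 and 74.0 CPM, 0.41 ± 0.07, edgeR adjusted p = 0.000289). Of 25 NRF2 and glutathione genes 1 was higher and 3 lower (6.68% of all genes in each direction). D17H6S56E-5 was at 61.7, 71.5 and 69.6 CPM against 140.4, 153 and 150.3 CPM (-1.13 ± 0.07, edgeR adjusted p = 3.10e-10). Med18, a subunit of the Mediator complex, was at 29.3, 35.1 and 36.1 CPM without methionine, 14.7, 15.8 and 14.9 CPM without BCAA and 20.8, 20.1 and 21.0 CPM in Control (1.14 ± 0.08, edgeR adjusted p = 3.83e-09).

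By the rule for the largest gaps, the genes highest without methionine beside Mat2a were mt-Tw (2.28), a mitochondrial tRNA, Il20rb (1.64), a cytokine receptor chain, and Lcmt2 (1.26), which modifies tRNA with SAM. They were followed by Egr3, Med18, Zfp235 (1.13), Ficd (1.12), Zkscan14 (1.11), Stambp (1.04), Sema4b (1.03), Dyrk3 (1.02), Fut7 (0.99) and Gdpgp1 (0.98). Il20rb was low in all samples, at 7.61, 5.41 and 6.50 CPM without methionine and 1.56, 2.32 and 2.31 CPM without BCAA. Levels of mt-Tw were low and scattered too, at 7.15, 14.3 and 10.8 CPM without methionine and 1.96, 1.97 and 2.70 CPM without BCAA. The lowest, beside those described, were mt-Co2 (-1.25), Bbs12 (-1.21), Zfp866 (-1.17), Dolk (-1.04), Kctd11 (-1.04), Dubr (-0.92) and Tmem177 (-0.91). Kctd11 was below Control in both groups, at -1.99 without methionine and -0.95 without BCAA.

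Of 10 mRNAs made by the mitochondrial genome, 4 were lower without methionine (6.68% of all genes in each direction) and none was higher, with a median of -0.52; mt-Tw, the mitochondrial tRNA higher above, is not among them. At an unadjusted edgeR p below 0.05, 6 were lower and none higher, and DESeq2 and limma-voom called 4 and 5 lower and none higher. mt-Co1, a subunit of cytochrome oxidase, was at 5625, 8174 and 7877 CPM without methionine and at a mean of 10814 ± 299 CPM (SD, n = 3) without BCAA (-0.58 ± 0.13, edgeR adjusted p = 0.00376). mt-Cytb was -0.64 ± 0.14. Of 13 mitochondrial mRNAs looked up, 10 were in the table. Together those in the table made up 0.765, 1.07 and 1.02% of the counts in the 3 libraries without methionine. The share was 1.33, 1.34 and 1.40% in those without BCAA and 1.10 to 1.39% in Control. By the levels above, mt-Co1 alone was most of this share in the 2 deprived groups. The first library without methionine had the lowest share of the 2 deprived groups, and without the second 7 of the 10 mRNAs were lower. The part of this share in the other results was not tested. Of 37 nuclear-encoded genes of complex I edgeR called none, with a median of 0.02. At an unadjusted p below 0.05, 2 were higher and 1 lower, and DESeq2 called 1 lower and limma-voom none, while without the first library lacking methionine 6 were called higher. Of 38 nuclear-encoded genes of complexes II to V edgeR called none, with a median of 0.005, 3 were lower at an unadjusted p below 0.05, and DESeq2 and limma-voom each called 1 lower, and without the first library lacking methionine 2 were called higher.

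In cholesterol synthesis, 21 of 24 SREBP2 targets were called below Control without methionine and 20 without BCAA, with medians of -0.66 and -0.55. The share of all genes called below Control is not given here. Compared directly, 3 of 24 were lower and 1 was higher without methionine (6.68% of all genes in each direction). Fdft1 (squalene synthase) was at 85.3, 106 and 99.6 CPM against 139.7, 141 and 137 CPM (-0.52 ± 0.07, edgeR adjusted p = 2.79e-05) and Acat2 was -0.50 ± 0.06. Hmgcs1 held 187, 160.3 and 171 CPM and 176, 164 and 182 CPM without a call (-0.01, edgeR adjusted p = 0.967).

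Genes of the ribosome itself were seldom called. None of 34 proteins of the 40S subunit was called by edgeR, DESeq2 or limma-voom, 1 was lower at an unadjusted edgeR p below 0.05, and 3 of 49 of the 60S subunit were lower, the largest of them Rpl3 (-0.28). The count of the 60S subunit was 8 without the second library lacking methionine, 1 without the third lacking BCAA and 0 in the fit on 6 libraries. Of 62 genes of ribosome biogenesis and RNA polymerase I, 9 were higher and 2 lower (6.68% of all genes in each direction), with a median of 0.07. Taf1c, a subunit of the RNA polymerase I selectivity factor, was 0.57 ± 0.10 and Utp15, of the small subunit processome, 0.43 ± 0.06. The count of higher genes was 19 with library totals, 14 without the first library lacking methionine and 4 in the fit on 6 libraries. Replication histones had 2 of 46 lower (H1f5 -0.51, H1f3 -0.43), and 13 without the second library lacking methionine, or 12 without the third lacking BCAA. Eif4a2, an mRNA helicase of translation initiation, was -0.65 ± 0.07 (edgeR adjusted p = 1.49e-06).

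**Figure D4:**
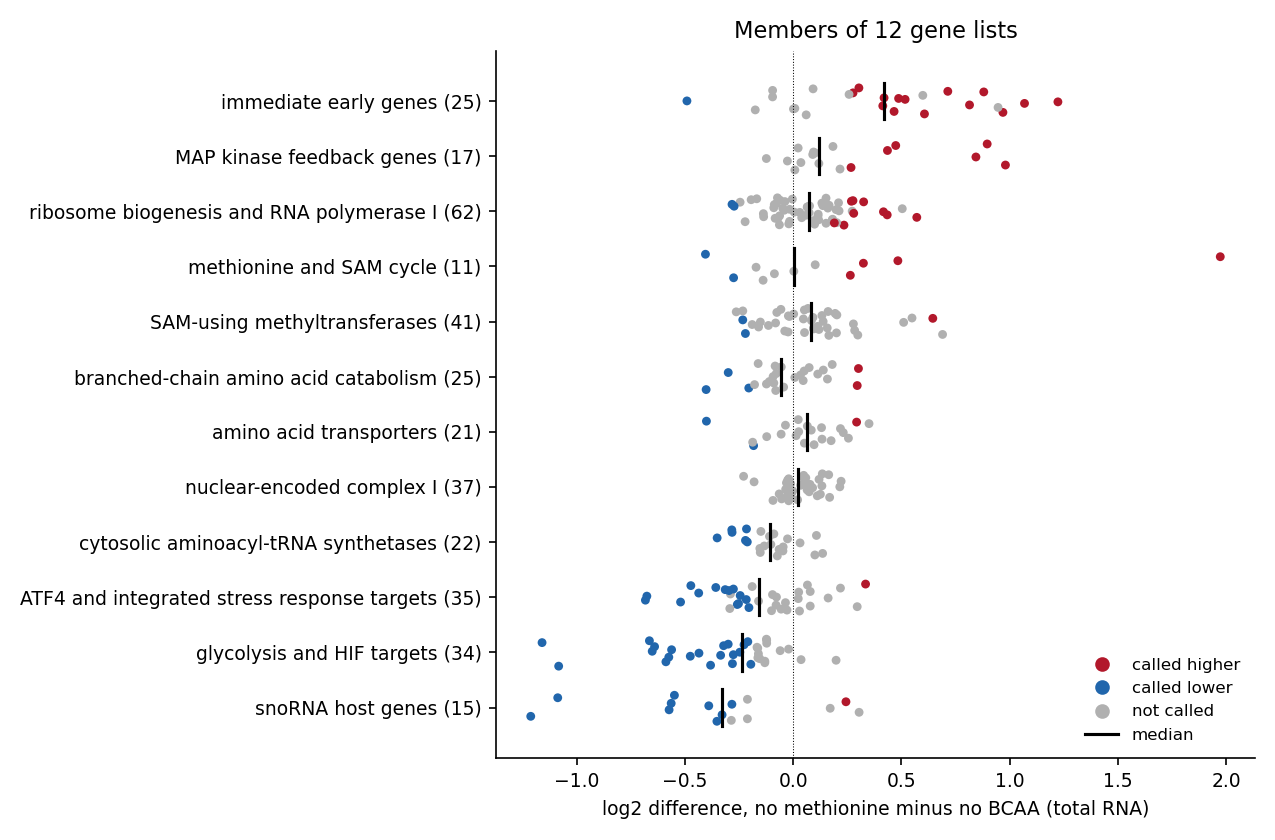
Each point is a tested member of 1 of 12 gene lists (number of members in brackets), with its log2 difference of total RNA, no methionine minus no BCAA, on the x axis; red and blue points are called higher and lower, and the black line is the median. Immediate early genes lie mostly to the right, with a median of 0.42, and snoRNA hosts and HIF targets to the left, with medians of -0.33 and -0.24.

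The polysome RNA of the same lysates was compared in the same way as a second measurement of these cells. There 2693 of 12417 genes were higher (21.7%) and 2874 lower (23.1%) without methionine. Of the 845 genes higher in total RNA, 831 were tested in polysome RNA and 607 of those (73.0%) were called higher there, while the 607 were 22.5% of all genes higher in polysome RNA. Of the 845 lower genes, 844 were tested and 584 (69.2%) were lower in polysome RNA, or 20.3% of the genes lower there. A total of 27 and 7 genes were called in the opposite direction. By list, 13 of 25 immediate early genes were higher in polysome RNA and 3 lower, and of 15 snoRNA hosts 0 and 10. Of 35 ISR targets 6 were higher and 18 lower. The HIF and glycolysis list, with none higher in total RNA, had 8 of 34 higher and 14 lower there. The synthetases, also with none higher in total RNA, had 6 of 22 higher and 3 lower, with a median of 0.08. Mat2a was 2.61 ± 0.12 in polysome RNA (edgeR adjusted p = 1.86e-11), Nr4a1 1.00 ± 0.11 and Egr2 1.09 ± 0.07. Ankrd37, Srxn1 and Snhg12 were -2.06 ± 0.12, -2.07 ± 0.10 and -1.85 ± 0.10, and Atf3 was -1.16 ± 0.06. Ccl4, higher in total RNA, was called lower in polysome RNA (-0.64 ± 0.10, edgeR adjusted p = 3.80e-05). Slc2a1 was not called in polysome RNA (-0.29 ± 0.14, edgeR adjusted p = 0.106), nor was mt-Tw (0.81 ± 0.50, edgeR adjusted p = 0.201).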

How the data were processed

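The authors' deposited table holds raw counts of reads, not normalized, for 14695 Ensembl genes (449 with an identifier only) in 60 libraries. The 18 monosome samples of the labels were not analysed here. The submitters' processing notes name FastQC, MultiQC, Trimmomatic, STAR, HTSeq, edgeR and the build GRCm39, and give no versions or roles. No scaling to a spike-in was used here, so levels are relative within a library, and a change shared by every gene would go unseen.

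The analysis ran in edgeR 4.0.16 under R 4.3.3. After filterByExpr (minimum count of 10) and TMM scaling, genes were tested by the quasi-likelihood F test on the 18 total RNA libraries of the 6 nutrient groups, with p-values adjusted by Benjamini-Hochberg over all genes tested and called at 0.05. Standard errors came from the log2 difference and its F statistic. Polysome RNA was fitted separately in the same way. The test was checked on simulated counts. Alternatives used limma 3.58.1 (voom), DESeq2 1.42.0 and other settings, 15 in all.

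Named genes were the 15 highest and 15 lowest called genes with a symbol, at least 5 CPM in 1 of the 2 groups and no overlap of libraries (without predicted genes, Rik names and ribosomal RNA), the leading called members and the most abundant uncalled members of 50 gene lists, and a set of genes tied to the removed amino acids. The lists and genes were chosen with earlier results of these data known. Of genes with 2 entries of 1 symbol, the more abundant was used in the lists. The labels' replicate numbers were not treated as pairs, because the labels do not say that a number marks a shared culture, animal or day. Between the 2 groups, residuals of libraries with the same number correlated at 0.0124, 0.0662 and -0.0793. Those of libraries with different numbers correlated at -0.158 to 0.141. With 3 libraries a group these values cannot decide whether the numbers mark pairs. Without a statement that counting used strand, overlapping and antisense genes such as snoRNA hosts are uncertain, as are paralogs and the histones. Depth was 18670605 to 25701946 counts per library of the 2 groups. Promoter sequences came from RefSeq tables of GRCm38.p6 and were matched by symbol. Some genes that the rule names are not reported here.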

Additional observations from a re-analysis of the deposited data

Results flagged for a closer look

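For 12 of the genes described, both deprivations were called against Control, in opposite directions. Only genes called in the direct comparison (edgeR, n = 3 and 3) were searched, so their direct call followed from the selection. Those above Control without methionine and below it without BCAA were Mat2a (a direct log2 difference of 1.97), Med18 (1.14), Sema4b (1.03), Dyrk3 (1.02), Fut7 (0.99) and Gdpgp1 (0.98). Those below Control without methionine and above it without BCAA were mt-Co2 (-1.25), Ccng2 (-1.23), Srxn1 (-1.21), Ankrd37 (-1.16), Il7r (-0.63) and Bcl2 (-0.57). Among the 1690 genes called in the direct comparison, 52 showed such opposite calls, 26 of each kind. mt-Co2 rests on levels of only 4.41, 6.54 and 6.84 CPM without methionine and 12.9, 14.2 and 15.3 CPM without BCAA. No group had the 4 libraries that a check for a single outlying library needs.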

How the results depend on the processing

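The comparison was repeated under 15 alternatives, all fixed with the design. Restricted to the 6 libraries, the fit called 705 genes, 395 higher and 310 lower, of which 703 were among the 1690, and it called 9 immediate early genes, 12 HIF and glycolysis genes, 5 ISR targets, 1 synthetase and 4 snoRNA hosts. With library totals 548 genes were lower, and 3 synthetases. With 1 library left out, total calls ran from 1167 to 2180, higher ones from 531 to 909, lower ones from 598 to 1271, and lower synthetases from 3 to 6. With the replicate block 1925 genes were called (934 higher, 991 lower), 1673 of them among the 1690. The labels do not say whether the replicate numbers pair the libraries. The other settings gave 1612 (no filter) to 1865 (DESeq2) calls. Of 224 called list members and named genes, 110 kept their call under every alternative that tested them.

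Values near 0 changed sign for 7 of the genes described in the results, none of them called. With library totals Slc7a5 became 0.022, Gzmb 0.0099 and Hmgcs1 0.0495, in the fit on 6 libraries Hmgcs1 became 0.0013, and with no filter Dusp1 became -0.00062. With 1 library left out, Slc7a5 ran from -0.096 to 0.016, Chac1 from -0.053 to 0.165, Gzmb from -0.144 to 0.053, Hmgcs1 from -0.083 to 0.044, Dusp1 from -0.073 to 0.092, Bcat2 from -0.0079 to 0.094 and Bckdk from -0.0078 to 0.088. The cause was not tested, beyond the smaller number of samples that the fit on 6 libraries has by construction. Genes at a few CPM, such as Ier5l, Phlda1 and Il20rb, rest on few counts, and 3 libraries a group limit the precision of all values.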

Other observations

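Zinc finger genes named Zfp plus a digit, Zkscan, Zscan or Zbtb, a class chosen after its values were seen, were higher without methionine in 80 of 371 tested (21.6%, beside 6.68% of all genes) and lower in 28 (7.55%), with a median log2 difference of 0.13. In the fit on 6 libraries 46 were higher and 8 lower, and with 1 library left out 51 to 81 were higher; the lowest, 51, came without the first library lacking BCAA. The class was not tested as a set.

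Over the 6 nutrient groups, 568 of the 845 higher genes had their highest mean without methionine, and 229 had their lowest without BCAA. Of the 845 lower genes, 437 had their lowest mean without methionine and 211 their highest without BCAA. The genes were selected by the difference between these 2 groups, which by itself favours such extremes. The same counts over all genes tested are not given here. These counts describe the group means and carry no test. In lysosome and autophagy genes 7 of 40 were lower and 1 higher without methionine (6.68% of all genes in each direction), and 3 were lower in the fit on 6 libraries and 4 with library totals. Atg12 and Rb1cc1, both needed to form autophagosomes, were -0.37 and -0.40 on the log2 scale.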
